A study of Rattus norvegicus with 2 samples.

Results

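Transcripts of 9 regulators of plasminogen activation and blood coagulation were compared between LPS-treated and vehicle-treated cultures of primary cardiomyocytes from neonatal SD rats. The 9 genes were the plasminogen activator genes Plau and Plat, the urokinase receptor gene Plaur, the protease inhibitor genes Serpine2 and Serpinb2, the coagulation initiator F3 and its inhibitor Tfpi, and the protein C pathway receptor genes Thbd and Procr. They were chosen by name, with earlier results of these data known, from 22093 genes that have a transcript cluster of their own on the array. A transcript cluster is the set of probes summarised to 1 value for a gene. Each of the 9 genes had 1 such cluster, so no choice between clusters was needed.

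The treated group received lipopolysaccharide (LPS), a component of the bacterial outer membrane that is sensed by Toll-like receptors, at 100 ng/mL for 24 h. The control group received vehicle for 24 h. No genetic change is named in the labels, and both groups of cells had been in culture for several days when treatment began. RNA was measured on 1 Affymetrix whole-transcript array per group, so no spread between samples can be estimated and no test was run; each value below describes these 2 arrays. By its title, the series concerns heart dysfunction in sepsis.

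Plasminogen is a circulating proenzyme that becomes plasmin, the protease that dissolves fibrin and opens extracellular matrix, when it is cut by the urokinase-type activator (Plau) or the tissue-type activator (Plat). Serpins end this activity by trapping the protease in a covalent complex. Coagulation runs the other way: tissue factor (F3) starts thrombin formation, Tfpi blocks that start, and thrombomodulin (Thbd) with the endothelial protein C receptor (Procr) turns thrombin towards activation of the anticoagulant protein C. Inflammation is known to shift both systems in endothelium and in monocytes.

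Serpinb2 was far higher and Serpine2 moderately higher with LPS, while Plau was clearly lower, and the other 6 genes lay within 2-fold. Fold differences were counted at 2-fold or more among the 14420 genes whose higher value reached 49.3, the median intensity of all clusters, called the floor here. All 9 genes passed the floor. At least 2-fold higher with LPS were 2 of the 9 (22.2%), against 3.69% of all genes above the floor. At least 2-fold lower was 1 of the 9 (11.1%), against 2.63% of all genes. Counted in either direction, 3 of the 9 (33.3%) differed by at least 2-fold, against 6.32% of all genes. The median log2 difference, LPS minus vehicle, was 0.46 over the 9 genes and 0 over all genes, of which 45.9% had exactly the same value on both arrays. With values under 236, the 75th percentile of clusters, raised to that level, the median of the 9 genes was 0. Because these are bulk cultures, fewer cells of a type and less RNA per cell cannot be told apart in any of the differences.

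**Figure D1:**
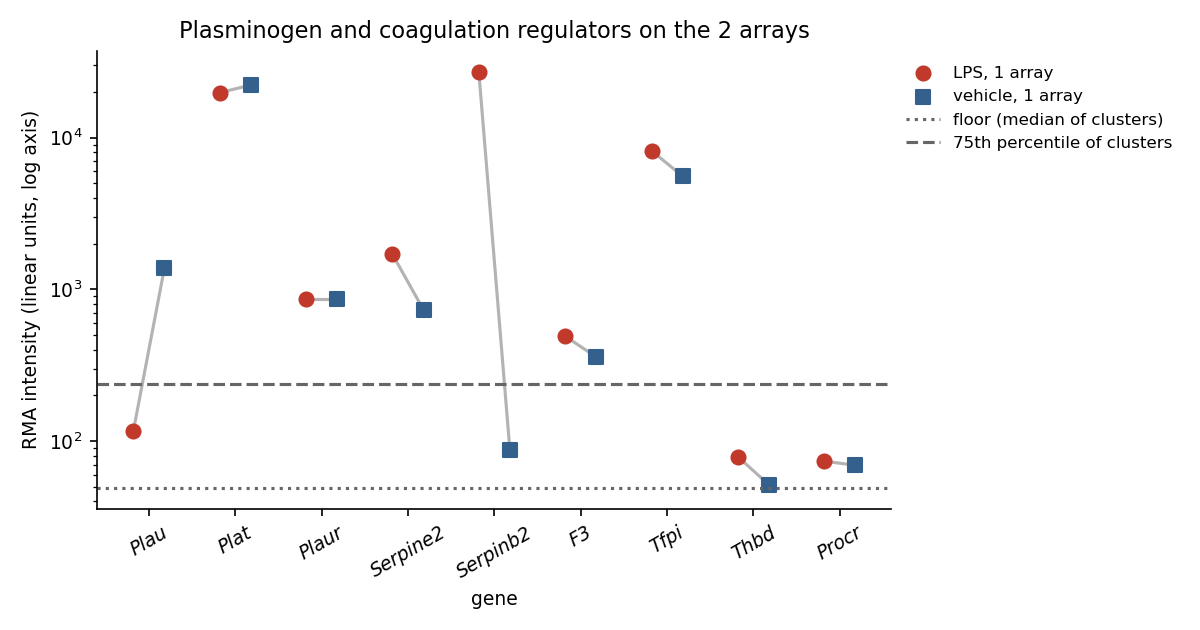
RMA intensity (log axis) of each of the 9 genes on the LPS array (red circles, left) and the vehicle array (blue squares, right), 1 array each, with the floor at 49.3 and the 75th percentile at 236 as lines. Serpinb2 stands at 27237 with LPS and 87.4 with vehicle, Plau at 116 with LPS and 1377 with vehicle, and the Thbd and Procr points all lie under the 75th percentile; heights of different genes are not comparable, since each has its own probes.

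Of the plasminogen activators, Plau differed and Plat hardly did. Plau (Entrez 25619), the urokinase gene, had an intensity of 116 with LPS and 1377 with vehicle. It was 11.9-fold lower with LPS, a log2 difference of -3.57, and ranked 12 from the lowest of the 14420 genes. Its LPS value was 2.35 times the floor, and the vehicle value 27.9 times the floor. With low values raised to 236 it was 5.83-fold lower, so the direction stayed and the size depended on how the low LPS value is read.

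Plat (Entrez 25692), the tissue-type activator gene, was well above the floor on both arrays, at 19784 with LPS and 22195 with vehicle. The difference was 1.12-fold lower with LPS, or -0.17 on the log2 scale, and 31.1% of all genes differed by more than that in either direction. Plaur (Entrez 50692), the cell-surface receptor that holds urokinase, had the identical value of 866 on both arrays. Exact identity was common at that level: when the genes above the floor were split into 4 equal bins of mean intensity, 37.0% of the 3605 genes in the bin that contains Plaur, from 458 to 1737, were identical. Of these 3 genes, Plau was thus the 1 past 2-fold, on the lower side.

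The start-site windows of Plau and Plaur are shown because these genes encode a protease and its receptor and differed unlike each other. Each window runs from 250 bases before to 50 bases after a RefSeq transcript start in build GRCr8, read 5′ to 3′ on the gene's strand, with matches to the motifs searched in capitals. The Plau window is chr15:3511938-3512237 on the minus strand and the Plaur window is chr1:89181113-89181412 on the plus strand.
Plau: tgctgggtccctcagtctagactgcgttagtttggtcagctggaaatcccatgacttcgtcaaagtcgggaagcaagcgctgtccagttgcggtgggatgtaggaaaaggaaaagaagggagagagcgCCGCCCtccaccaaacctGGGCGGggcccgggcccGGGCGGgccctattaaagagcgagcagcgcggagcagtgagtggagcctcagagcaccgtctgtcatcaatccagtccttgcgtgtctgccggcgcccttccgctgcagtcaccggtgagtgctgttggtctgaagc
Plaur: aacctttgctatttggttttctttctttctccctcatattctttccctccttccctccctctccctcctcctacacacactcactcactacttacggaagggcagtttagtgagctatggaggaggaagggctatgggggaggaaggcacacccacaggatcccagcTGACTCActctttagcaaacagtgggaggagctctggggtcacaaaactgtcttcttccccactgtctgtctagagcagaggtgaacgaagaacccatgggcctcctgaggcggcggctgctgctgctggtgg
In Plau the capitals mark 3 matches to the Sp1 motif GGGCGG, starting 122, 104 and 87 bases before the start. In Plaur they mark 1 match to the AP-1 motif TGANTCA, starting 83 bases before it.

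Both inhibitor genes were higher with LPS, by very different amounts. Serpinb2 (Entrez 60325), which encodes plasminogen activator inhibitor type 2, a largely intracellular serpin that inhibits urokinase and is well known to be induced by LPS in macrophages, had 27237 with LPS and 87.4 with vehicle. The difference was 312-fold, 8.28 on the log2 scale, and ranked 6 from the highest of all genes. The vehicle value was 1.77 times the floor, and with low values raised to 236 the gene was 115-fold higher.

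Serpine2 (Entrez 29366), which encodes protease nexin-1, an extracellular serpin that inhibits thrombin, urokinase and tissue-type activator, had 1704 with LPS and 732 with vehicle. It was 2.33-fold higher with LPS, 1.22 on the log2 scale, rank 447 from the highest. Both values lay above the 75th percentile of clusters, so raising low values left it at 2.33-fold. After removal of a smooth trend of the difference on level, it stood at 1.16.

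The windows of the 2 inhibitor genes are shown because these are the genes at least 2-fold higher with LPS. The Serpinb2 window is chr13:24055771-24056070 on the plus strand and the Serpine2 window is chr9:88637153-88637452 on the minus strand, both in GRCr8. The transcript start used for Serpinb2 lies 4088 bases inside the outermost start of the gene in the RefSeq gene table, so this window may not hold the region before the main start.
Serpinb2: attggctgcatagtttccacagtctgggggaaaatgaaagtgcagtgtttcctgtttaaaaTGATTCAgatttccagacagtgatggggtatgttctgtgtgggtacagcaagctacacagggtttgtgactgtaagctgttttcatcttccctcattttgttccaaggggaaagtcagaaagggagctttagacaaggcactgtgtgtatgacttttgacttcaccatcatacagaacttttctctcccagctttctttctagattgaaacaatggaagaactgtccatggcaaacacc
Serpine2: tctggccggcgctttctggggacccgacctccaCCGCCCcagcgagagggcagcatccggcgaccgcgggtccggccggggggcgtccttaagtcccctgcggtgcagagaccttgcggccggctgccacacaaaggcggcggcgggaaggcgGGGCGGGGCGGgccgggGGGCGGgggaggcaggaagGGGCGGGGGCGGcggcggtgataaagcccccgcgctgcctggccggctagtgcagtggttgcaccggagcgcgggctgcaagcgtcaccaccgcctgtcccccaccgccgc
In Serpinb2 the capitals mark 1 AP-1 match, starting 189 bases before the start used. In Serpine2 they mark 6 Sp1 matches, the nearest to the start beginning 55 bases before it, and 2 of them share a base. The base composition of the windows differs widely, with 77.0% G and C in Serpine2, 61.0% in Plau, 54.0% in Plaur and 42.7% in Serpinb2, against a median of 51.7% over all windows.

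Windows were at hand for 6 of the 9 genes, 7 windows in all, since Tfpi has 2. The starts used for Tfpi lie 8529 and 5710 bases inside the outermost start of that gene. As with Serpinb2, these windows may not hold the region before the main start. The matches given for Tfpi lie in the window 5710 bases inside. Both strands were searched for 7 motifs in these windows and in all 33469 windows of the same length in the RefSeq table. AP-1 was matched in 3 of the 7 windows (Plaur, Procr and Serpinb2), and in 7.33% of all windows. Sp1 was matched in 4 of the 7 (Plau, Procr, Serpine2 and Tfpi), and in 33.1% of all. The TEAD motif GGAATG and the hypoxia response core ACGTG were matched in 1 of the 7 each, in the same Tfpi window, and in 14.2% and 19.3% of all windows. The core gave 2 overlapping matches there, on opposite strands. The NF-kB consensus, the CRE motif TGACGTCA and the TATA motif TATAAA had no match in the 7 windows, and were matched in 7.51%, 1.83% and 14.2% of all. The AP-1 windows belong to a gene with identical values, a gene 1.06-fold higher and a gene 312-fold higher with LPS. The Sp1 windows belong to 1 gene lower with LPS, Plau, and to 3 genes higher with it. A match is one of letters, and binding was not tested.

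**Figure D2:**
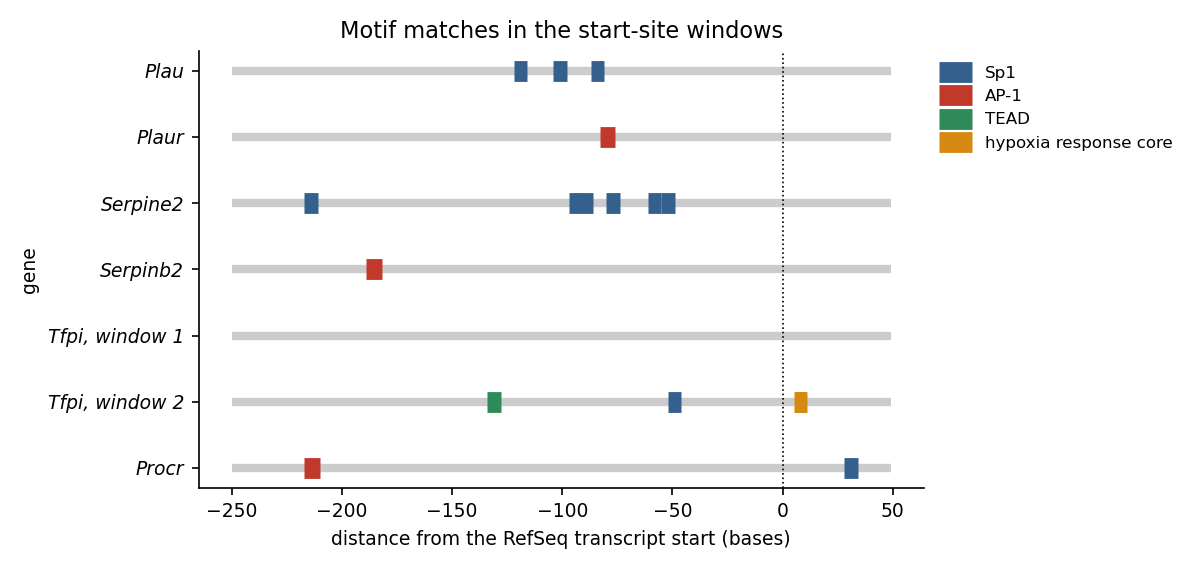
Positions of motif matches (coloured blocks, AP-1, Sp1, TEAD and hypoxia response core) along the 7 windows, as distance in bases from the RefSeq transcript start, with the start as a dotted line. Serpine2 holds 6 Sp1 matches and Plau 3, AP-1 matches lie in Plaur, Serpinb2 and Procr, and 1 of the 2 Tfpi windows holds none.

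The initiator of coagulation and its inhibitor were both a little higher with LPS, by similar amounts. F3 (Entrez 25584), tissue factor, had 492 with LPS and 358 with vehicle, 1.38-fold higher or 0.46 on the log2 scale. Tfpi (Entrez 29436), tissue factor pathway inhibitor, had 8189 with LPS and 5567 with vehicle, 1.47-fold higher or 0.56. These ranked 1034 and 898 from the highest. Neither reached 2-fold, and 14.8% and 12.3% of all genes differed by more than F3 and Tfpi in either direction.

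The protein C pathway receptors were close to the floor on both arrays. Thbd (Entrez 83580), thrombomodulin, had 78.9 with LPS and 51.4 with vehicle, 1.54-fold higher or 0.62 on the log2 scale. Procr (Entrez 362248) had 73.7 with LPS and 69.3 with vehicle, 1.06-fold higher or 0.09. All 4 values lay under 236, and with low values raised both genes had no difference. In the lowest of the 4 bins of mean intensity, which holds Thbd and Procr, 72.2% were identical and 4.77% differed by at least 1.5-fold. Both receptors are best known from endothelium. Of 9 endothelial markers, 7 reached the floor, with a median log2 difference of 0, and Cldn5 and Erg lay under it. Of the 7, Vwf and Emcn stood at the floor itself, 49.3 on both arrays. Pecam1, Cdh5 and Tie1 also lay under 236 on both arrays, so the median comes from low values. Kdr had 1975 with LPS and 715 with vehicle, 2.76-fold higher, and was the 1 marker past 2-fold. Tek had 246 with LPS and 346 with vehicle, and Pecam1 was 82.8 on both arrays. The 9 markers summed to 2620 with LPS and 1471 with vehicle, and to 645 with LPS and 756 with vehicle without Kdr. The part of these cells in the receptor values was not tested.

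By signed difference the order from highest was Serpinb2, Serpine2, Thbd, Tfpi, F3, Procr, Plaur, Plat and Plau, a span of 11.9 log2 units. With 1 array per group, neighbours in that order such as Thbd, Tfpi and F3, from 0.62 to 0.46, cannot be separated from each other. Across all genes above the floor, 76.6% differed by less than 1.2-fold, and 3 of the 9 (Procr, Plaur and Plat) lay inside that range.

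**Figure D3:**
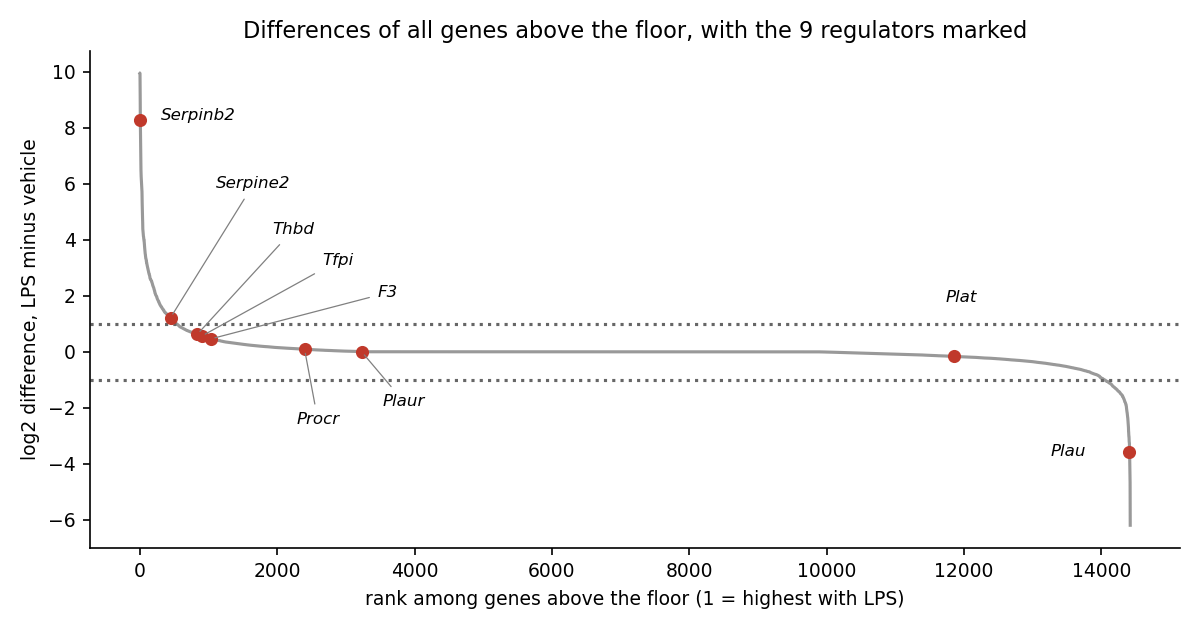
Log2 difference, LPS minus vehicle, of the 14420 genes above the floor against rank (grey line), with the 9 genes as red points and 2-fold as dotted lines. Serpinb2 at 8.28 and Plau at -3.57 lie at the 2 ends, Serpine2 just above the upper line, and the other 6 between the lines.

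The other genes of the plasminogen system mostly lay within 2-fold. Of 15 measured, 11 passed the floor. None was at least 2-fold higher and 1 was lower, with a median log2 difference of 0. That gene was S100a10, whose protein forms with annexin A2 a cell-surface assembly site for plasminogen and tissue-type activator, at 6554 with LPS and 18000 with vehicle, 2.75-fold lower. Its partner gene Anxa2 was 1.17-fold higher. Lrp1, the endocytic receptor that clears activator and inhibitor complexes, was 1.47-fold higher. Plasminogen itself (Plg), the substrate of Plau and Plat, was under the floor, at 37.7 on both arrays.

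Beside F3, 18 genes were listed, coagulation factors together with Ggcx, Vkorc1, Lman1 and Mcfd2, which are not factors themselves. Of the 18, 10 lay under the floor with the same value on both arrays, prothrombin (F2) at 30.6 among them. Of the 8 at or above it, Fgb and Vwf stood at the floor itself, 49.3 on both arrays. None of the 8 was at least 2-fold higher, and F5, the cofactor of prothrombin activation, was the 1 lower. It had 39.2 with LPS and 78.4 with vehicle, just past 2-fold. Both F5 values were under 236, so raising low values removed the difference. Vkorc1, an enzyme of the vitamin K cycle, was 1.19-fold lower.

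Among the other anticoagulant genes, 11 were measured, and 6 of them lay under the floor with the same value on both arrays. Of the 5 above it, 3 differed by at least 2-fold, in both directions, against 6.32% of all genes. Tfpi2, a Kunitz-type inhibitor related to Tfpi that inhibits plasmin, had 1608 with LPS and 92.4 with vehicle. It was 17.4-fold higher with LPS, and 6.81-fold after raising low values. Entpd1, the ectonucleotidase that removes platelet-activating ADP, was 12.3-fold lower, and its other cluster 9.42-fold lower. Gas6, a vitamin K-dependent ligand of TAM receptors, was 2.20-fold lower. Pros1, protein S, the cofactor of activated protein C, was identical at 6011. On the log2 scale Tfpi2 was higher by 4.12, and Tfpi itself by 0.56.

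The protease-activated receptors, through which thrombin and other proteases signal to cells, went opposite ways. F2r, the main thrombin receptor, had 4953 with LPS and 14940 with vehicle, 3.02-fold lower. F2rl2, a cofactor receptor for thrombin signalling known from mouse platelets, had 1883 with LPS and 712 with vehicle, 2.64-fold higher. F2rl1 was 80.5 with LPS and 120 with vehicle, both under 236, and F2rl3 was under the floor. Over these 4 lists and the clade B serpins below, 31 genes passed the floor, with a median log2 difference of 0. At least 2-fold higher were 3 (9.68%, against 3.69% of all genes), and 5 were lower (16.1%, against 2.63%). The 5 include F5, which passed the floor only through its vehicle value. These lists were chosen with earlier results of these data known, so the shares describe them and cannot be read as enrichment.

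Serpinb2 belongs to the clade B serpins, and those measured lie on chromosomes 13 and 17. On chromosome 13, which holds Serpinb2, the 8 other clade B genes measured were all under the floor, between 16.8 and 46.4 on both arrays, and none differed by more than 0.07 log2. Serpinb10 was among them, at 42.9 with LPS and 42.6 with vehicle. On chromosome 17, Serpinb9, an inhibitor of granzyme B, had 5391 with LPS and 2196 with vehicle, 2.46-fold higher, and Serpinb6a was 1.15-fold lower. Of the 13 clade B genes measured, Serpinb2 and Serpinb9 were thus the 2 at least 2-fold higher.

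**Figure D4:**
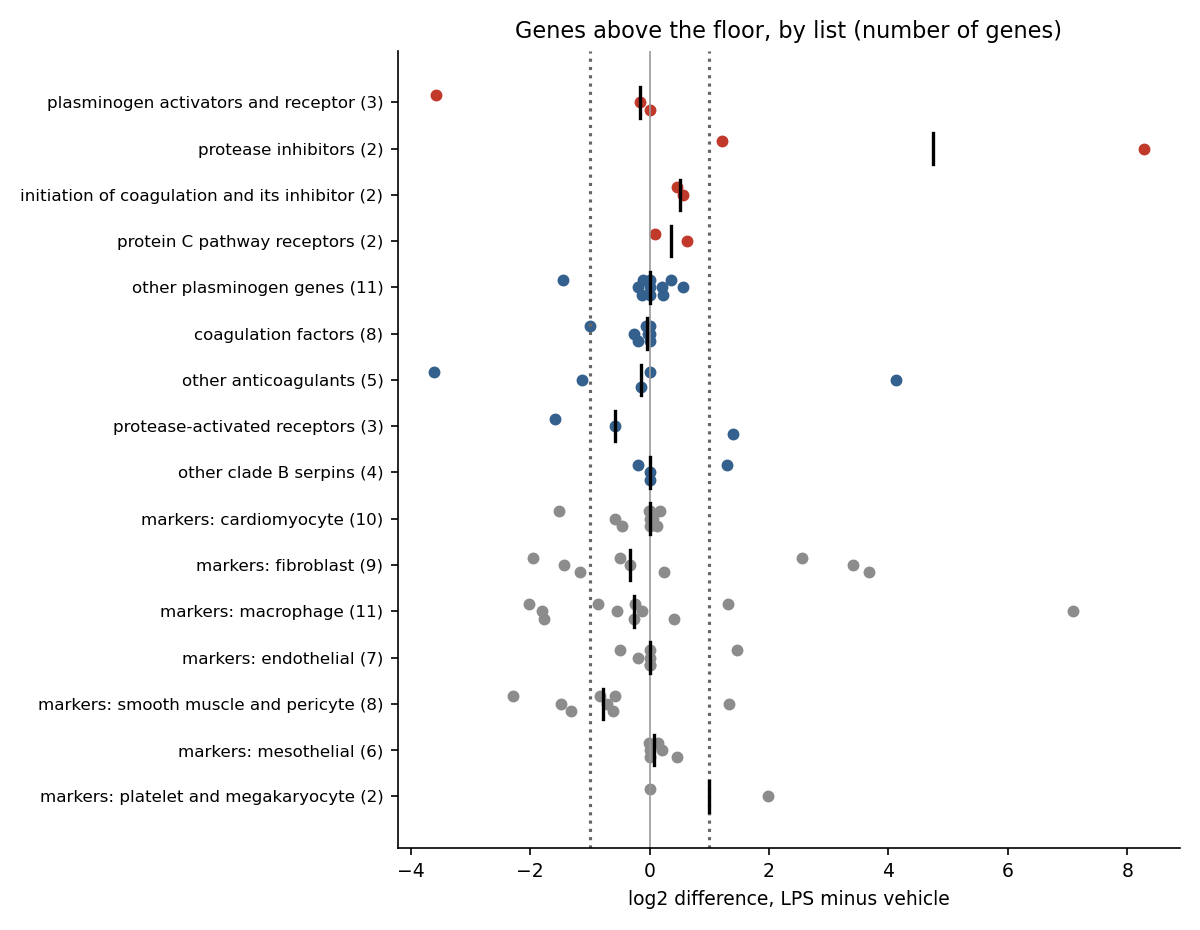
Log2 difference, LPS minus vehicle, of each gene above the floor (points), by list, with the list median as a black bar, 2-fold as dotted lines and the number of genes in brackets. The 9 genes described here are red, the other genes of coagulation and fibrinolysis blue and cell type markers grey; Serpinb2 at 8.28 and Tfpi2 at 4.12 are the points farthest right outside the markers.

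Genome neighbours of the 9 genes were examined in the gene order of RefSeq build GRCr8, taking the nearest 2 measured genes above the floor on each side. Genes not measured or under the floor were passed over, so these neighbours need not be adjacent. For Serpinb2, 10 genes were passed over on the lower-coordinate side and 21 on the higher-coordinate side. Of the 36 neighbours, 20 had identical values, none was at least 2-fold higher and 2 were at least 2-fold lower, and their median difference was 0. Over all genes above the floor, 45.9% were identical, 3.69% were at least 2-fold higher and 2.63% lower. Whether the neighbours differ from that background was not tested. Vcl, the gene of the adhesion protein vinculin and the neighbour of Plau on one side, had 7482 with LPS and 24114 with vehicle, 3.22-fold lower. On the other side of Plau, Camk2g was identical at 2957. Cadm4, a cell adhesion gene beside Plaur, had 206 with LPS and 793 with vehicle, 3.84-fold lower, while Plaur itself was identical. Next to Tfpi, the receptor gene Calcrl was 1.94-fold higher, at 1507 with LPS and 778 with vehicle.

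**Figure D5:**
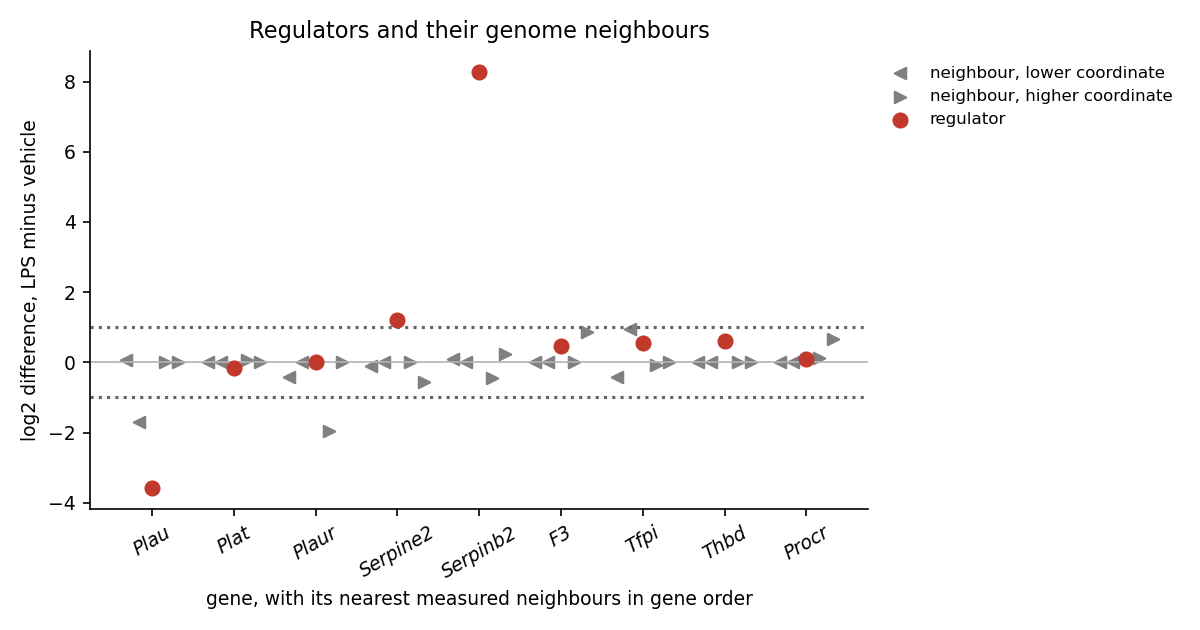
Log2 difference, LPS minus vehicle, of the 9 genes (red circles) and of the nearest measured neighbours above the floor on each side (grey triangles), with 2-fold as dotted lines. Vcl beside Plau and Cadm4 beside Plaur lie below the lower line, and every neighbour of Serpinb2 and Serpine2 lies between the lines.

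The cultures also held RNA of other cell types on both arrays. All 10 cardiomyocyte markers were above the floor, with Tnnt2 at 87940 with LPS and 84362 with vehicle, a median difference of 0 and 1 marker, Myl4, at least 2-fold lower, followed by Actc1 at 1.49-fold lower. Of 9 fibroblast markers, Dcn (12.8-fold), Pdgfra (10.5-fold) and Lum (5.89-fold) were higher by 2-fold or more. Col3a1 (2.70-fold), Thy1 (3.87-fold) and Tcf21 (2.24-fold) were lower by 2-fold or more, and the median log2 difference of the 9 was -0.33. The 9 summed to 642896 with LPS and 506534 with vehicle, but to 465462 with LPS and 492694 with vehicle without Dcn. Of 12 macrophage markers, 11 passed the floor, 2 at least 2-fold higher (Adgre1 and Itgam) and 3 lower (Csf1r, Mrc1 and C1qb). Adgre1 had 8803 with LPS and 64.4 with vehicle, 137-fold higher, and 37.3-fold after raising low values. Itgam was 2.47-fold higher, and Csf1r, Mrc1 and C1qb were 3.39-fold, 3.49-fold and 4.07-fold lower. Of the 11, 8 were lower by any amount, the median was -0.26, and Cd163 was under the floor. The 12 summed to 33485 with LPS and 28156 with vehicle, but to 24682 with LPS and 28091 with vehicle without Adgre1. These values stand beside Serpinb2 and Plau, both genes that macrophages can express. Smooth muscle and pericyte markers summed to 152162 with LPS and 416896 with vehicle, and to 41324 with LPS and 105500 with vehicle without Acta2. Of the 8, 7 were lower by any amount, and the median log2 difference was -0.78. Acta2, Tagln and Notch3 were past 2-fold on the lower side and Rgs5 on the higher. Mesothelial markers summed to 1643 with LPS and 1407 with vehicle, with none of 6 above the floor past 2-fold and Lrrn4 and Msln differing most, 1.37-fold and 1.15-fold higher. Platelet markers summed to 1969 with LPS and 597 with vehicle, but to 135 on both arrays without Pf4. Pf4 was 3.97-fold higher, Itga2b was identical, and Ppbp, Gp9 and Gp1ba were under the floor. Each sum adds probes of unequal response and weights the brightest markers. The part of any of these cell types in the differences of the 9 genes was not tested.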

How the data were processed

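RNA of 1 LPS-treated and 1 vehicle-treated culture group was measured on 1 array each. The sources used here do not say whether cultures were pooled. RNA was labelled with biotin and the GeneChip WT PLUS kit, per the labels' protocols. Per the submitters' processing notes, the authors ran RMA in Affymetrix Expression Console 1.4.1. The deposited table holds linear-scale intensities, with 1 value for each cluster on each array. For the scaling after RMA, the annotation version and the genome build, the sources used here give nothing. No depth applies to arrays, and their number limits the precision.

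Differences were taken between log2 of the deposited intensities, without pseudocount or further scaling, in Python 3.11.15 with pandas 2.3.3. The platform table gives 1 gene symbol for 23446 of the 68842 clusters, several for 505 and none for 44891. By Entrez ID, 22077 of the 23446 matched a gene of RefSeq build GRCr8, whose symbol was used. Where a gene had several clusters, the one with the highest mean was used. The counting functions were tested on simulated data. The 9 genes, the gene lists, the motifs and the rule for named genes were chosen with earlier results of these data known. Beside the 9 genes, the text names the members of each list past 2-fold, otherwise the largest differences, and neighbours past 2-fold. A planned search for genes with the most similar values was left out, since levels of different probes are not comparable. Some further genes, such as Anxa2, Plg, Pros1, Camk2g, Calcrl, F2, F2rl1, Serpinb10, Tnnt2 and Pecam1, were named after their values were seen. Alternatives were median centring, removal of a loess trend (span 0.3), the mean over clusters, raised low values, other floors and other fold sizes.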

Additional observations from a re-analysis of the deposited data

How the results depend on the processing

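The counts of the 9 genes at least 2-fold higher (2) and lower (1) were the same with median centring, a loess trend removed, the mean over clusters, low values raised, no floor and a floor at 236. At 3-fold, 1 gene was higher, Serpinb2, and at 1.5-fold 3 were, with Thbd added to Serpinb2 and Serpine2. Plau was the 1 lower at both sizes. With the floor at 236, 7 of the 9 genes were measured, without Thbd and Procr. Over all genes, 872 were higher and 818 lower at 1.5-fold, and 317 and 113 at 3-fold, against 532 and 379 at 2-fold. Raising low values moved Plau to -2.54, Serpinb2 to 6.85 and Thbd to 0 on the log2 scale, since each has at least 1 value under 236. Median centring moved all differences by 0.01. No paired analysis was possible because each group has 1 array, which also means that no replicate can be left out.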
